A study of Mus musculus with 2 samples.

Results

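The genes described here are the cyclins and inhibitors that act on the first gap phase of the cell cycle, called G1: the D-type cyclins Ccnd1, Ccnd2 and Ccnd3, the E-type cyclins Ccne1 and Ccne2, the inhibitors Cdkn1b, Cdkn2a and Cdkn2b, and the retinoblastoma gene Rb1. They were chosen by symbol, and all 9 were found among the 32285 genes of the count tables. The cells were embryonic stem cells of the inbred mouse strain C3H/HeSn-Paf/J, from 9 lines, 3 each derived from XX, XO and XY embryos and mixed before capture. All were grown in medium with serum and leukaemia inhibitory factor (LIF) on gelatin and irradiated mouse embryonic fibroblasts, called feeders. The library of time 1 came from an early passage and that of time 2 from the same mixture after 10 more passages. Each time point had 1 library, so no difference between groups could be tested, and library and passage cannot be told apart.

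Progress through G1 depends on kinases that are inactive until a cyclin binds them. D-type cyclins bind the kinases CDK4 and CDK6, E-type cyclins bind CDK2, and both kinds of complex phosphorylate the retinoblastoma protein, which otherwise holds E2F transcription factors in check. Mouse embryonic stem cells are known for a short G1 phase and for a retinoblastoma protein that is mostly phosphorylated, while fibroblasts have a longer G1 that responds to growth factors and to INK4 inhibitors.

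After filtering, 23210 cells remained at time 1 and 25483 at time 2, with medians of 44365.5 and 50386 unique molecular identifiers (UMIs, 1 per captured RNA molecule) and 5998 and 6115 genes. The libraries summed to 1735810403 and 1843588321 UMIs over 145288 and 52242 barcodes, and the kept cells shared 192 barcodes. The cells were clustered without the 9 genes and classes were named from marker lists, apart from a cluster led by Spry2, described below. The pluripotent stem cell-like class held 9157 cells at time 1 and 19576 at time 2, the fibroblast-like class, which is where feeders should fall, 185 and 337. The primed epiblast-like class held 6006 and 314 cells. Smaller classes were the mesendoderm-like (209 and 200 cells), trophoblast-like (124 and 120), endoderm-like (51 and 109), endothelial-like (81 and 191) and two-cell-like cells (156 and 59), the last marked by Zscan4 family genes. Clusters led by Spry2 (5985 and 20 cells), T (131 and 4041) and Krt8 (732 and 182), and cells with both fibroblast and stem cell markers (268 and 332), were left unnamed. Macrophage-like cells (56 and 2) were too few at time 2 and are not described, but their time 1 values enter the correlations at the end. All 12 pluripotency markers were detected in the pluripotent class, where they summed to 11212 CPM (UMIs of a gene per 1000000 UMIs of the class) at time 1 and 7555 CPM at time 2. All 12 were also detected in the Spry2-led cluster of time 1, at 8445 CPM. That cluster held 25.8% of time 1 cells. It was kept out of the pluripotent class by its leading gene and not by a marker list. The endoderm-like cells still carried 5737 and 3437 CPM of those markers, trophoblast-like cells 4346 and 2955 CPM, and endothelial-like cells 3001 and 2082 CPM. The part this plays was not tested in endoderm-like and trophoblast-like cells. All 11 fibroblast markers were detected in the fibroblast-like class and summed to 30694 and 27608 CPM, against 321 and 442 CPM in the pluripotent class and 1402 and 1370 CPM in trophoblast-like cells. Levels below are summed UMIs of a class as CPM, with exact Poisson 95% intervals that cover counting error only. Because the chemistry counts the 3′ ends of transcripts, levels were compared between classes for each gene. Genes were set beside each other only as parts of the D-type and E-type families.

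**Figure D1:**
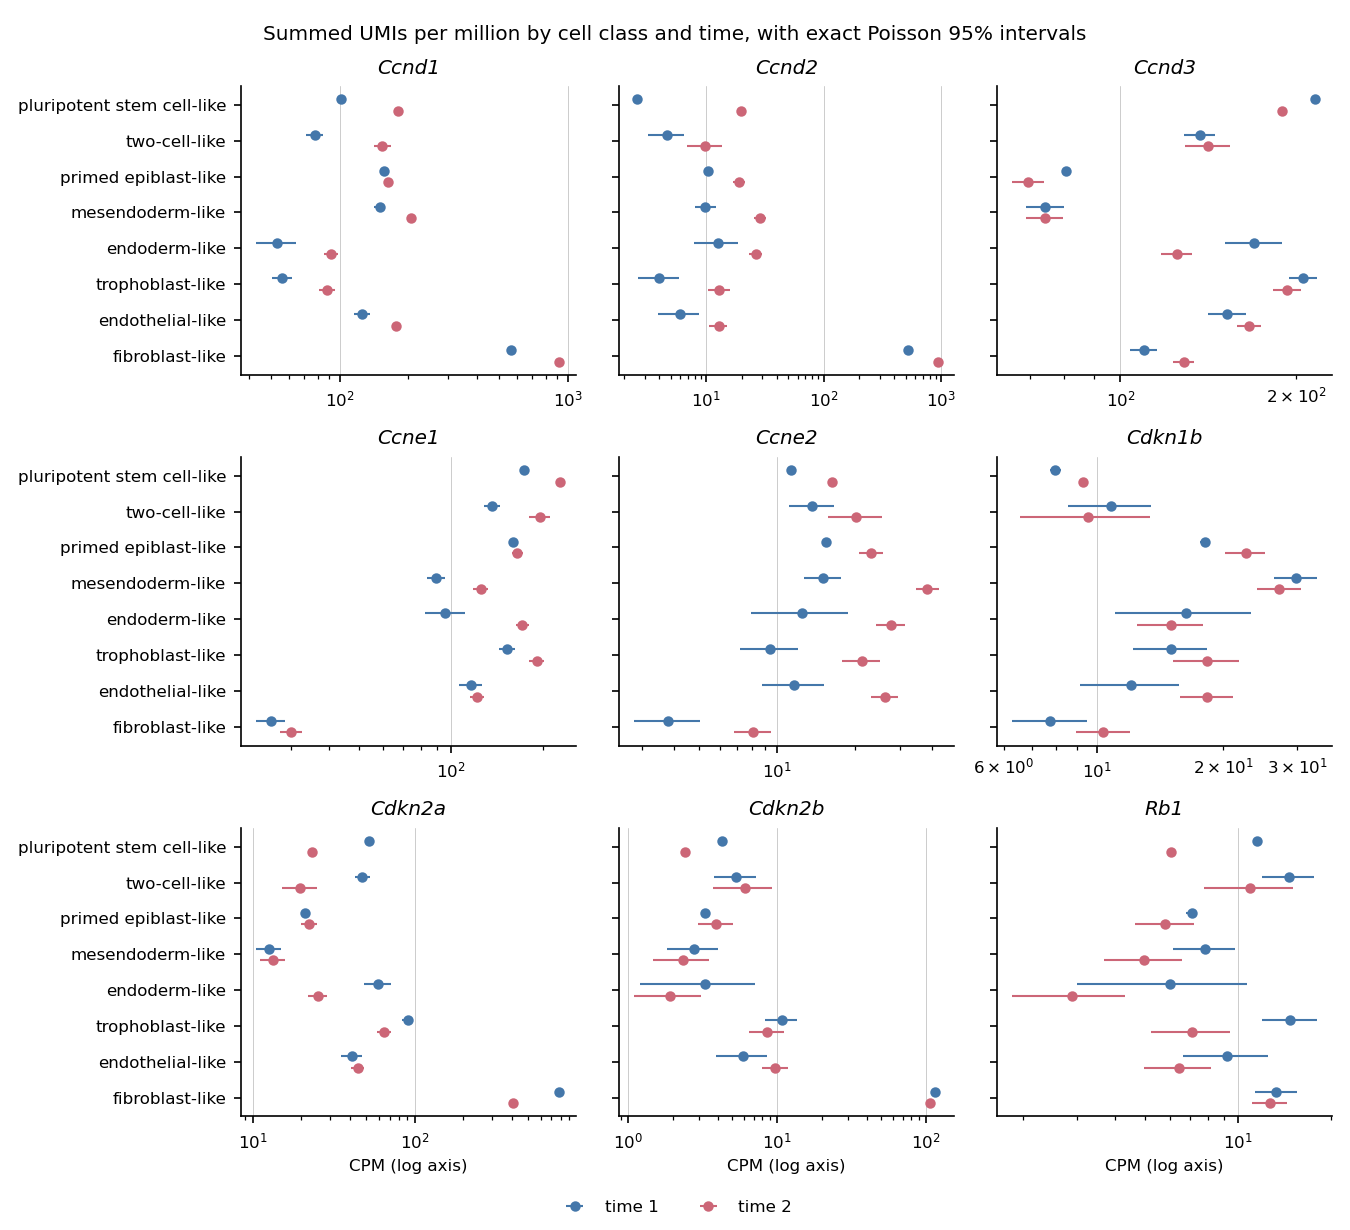
Levels of the 9 genes in CPM (log axis) in the 8 named classes at time 1 and time 2. Points are summed UMIs of a class and bars are exact Poisson 95% intervals. Ccnd2 runs from 2.56 CPM in pluripotent cells of time 1 to 942 CPM in fibroblast-like cells of time 2, whereas Rb1 stays between 2.88 and 14.7 CPM.

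Among the D-type cyclins, Ccnd2 (ENSMUSG00000000184, chr6:127125162-127152193 of GRCm38, minus strand) differed most between classes. In fibroblast-like cells it stood at 523 CPM (510 to 536) at the first time and 942 CPM (928 to 957) at the second. In pluripotent cells it stood at 2.56 CPM (2.43 to 2.70) and 19.9 CPM (19.7 to 20.2). The other named classes ran from 3.99 CPM in trophoblast-like to 12.5 CPM in endoderm-like cells at time 1, above the pluripotent level. At time 2 they ran from 9.82 CPM in two-cell-like to 28.8 CPM in mesendoderm-like cells, on both sides of it. No other named class came near the fibroblast-like cells. At a depth of 10000 UMIs per cell, 1.97% of pluripotent cells of time 1 (Clopper-Pearson 95% interval 1.69 to 2.27) had a Ccnd2 UMI, and with all UMIs 8.79%. The thinned share in fibroblast-like cells of that time was 90.8% (85.7 to 94.6).

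RNA released from other cells can give such low counts. The level of a fibroblast marker in pluripotent cells was between 0.085% and 2.97% of its level in fibroblast-like cells at time 1, with a median of 0.181% over the 11 markers, and that of Ccnd2 was 0.49%. At time 2 the markers ran from 0.103% to 7.20%, with a median of 0.219%, and Ccnd2 stood at 2.12%. Ccnd2 was above 7 of 11 markers at time 1 and above 10 of 11 at time 2, the last being Fn1, which stood highest at both times. How much of the low Ccnd2 level of pluripotent cells came from other cells cannot be read from these values at either time. In barcodes with at most 2000 UMIs, taken as a measure of free RNA, Ccnd2 stood at 7.63 CPM at time 1 and 120 CPM at time 2.

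Ccnd1 (chr7:144929931-144939925, minus strand), the D-type cyclin that growth factors are best known to induce, was also highest in fibroblast-like cells. It stood there at 565 CPM (551 to 578) and 919 CPM (905 to 933), against 101 CPM (101 to 102) and 181 CPM (180 to 182) in pluripotent cells. Primed epiblast-like cells held 156 and 163 CPM, and mesendoderm-like cells 149 and 206 CPM. The lowest values were 52.9 CPM in endoderm-like and 55.9 CPM in trophoblast-like cells of time 1, whose intervals overlapped. Each class was higher at time 2 than at time 1.

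Ccnd3 (chr17:47505051-47599691, plus strand) had another order of classes. Pluripotent cells were highest at time 1 with 216 CPM (214 to 217), and trophoblast-like cells came next with 206 CPM (195 to 217), within its counting error. At time 2 these 2 classes stood at 190 CPM (189 to 190) and 193 CPM (183 to 204). Mesendoderm-like cells were at 74.3 CPM at both times, primed epiblast-like cells at 80.6 and 69.4 CPM, and fibroblast-like cells at 110 and 128 CPM. Endoderm-like (169 and 125 CPM), endothelial-like (152 and 166 CPM) and two-cell-like cells (137 and 141 CPM) lay in between. The 2 highest classes were thus an embryonic and an extraembryonic type, and the primed epiblast-like and mesendoderm-like cells lay well below both. Trophoblast-like cells still carried pluripotency markers, as given above, and the part of this in their Ccnd3 level was not tested.

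The makeup of the D-type family, the share that each gene gives to the summed UMIs of the 3 genes, does not depend on the scaling of the libraries. In pluripotent cells of time 1, Ccnd3 gave 67.5% (67.2 to 67.7) of 163672 UMIs, Ccnd1 31.7% and Ccnd2 0.802%. At time 2 Ccnd3 gave 48.6% (48.4 to 48.7) of 447936 UMIs, Ccnd1 46.3% and Ccnd2 5.11%. In the primed epiblast-like cells Ccnd1 gave most, 63.3% at time 1 and 64.8% at time 2, and in the mesendoderm-like cells 64.0% and 66.6%. The trophoblast-like cells had the opposite makeup, with 77.5% and 65.7% from Ccnd3. In fibroblast-like cells Ccnd1 (47.2% and 46.2%) and Ccnd2 (43.7% and 47.4%) gave near-equal parts and Ccnd3 gave 9.16% and 6.45%. The near-even split of pluripotent cells at time 2 pooled clusters of opposite order. Ccnd1 and Ccnd3 stood at 217 and 168 CPM in the cluster led by Gm46332. They stood at 144 and 180 CPM in the one led by Nanos3 and at 191 and 297 CPM in the one led by Jam2. In the one led by Rhox9 they stood at 103 and 209 CPM, after 90.2 and 197 CPM at time 1. 3′ counting may weigh the 3 genes unequally within every class.

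**Figure D2:**
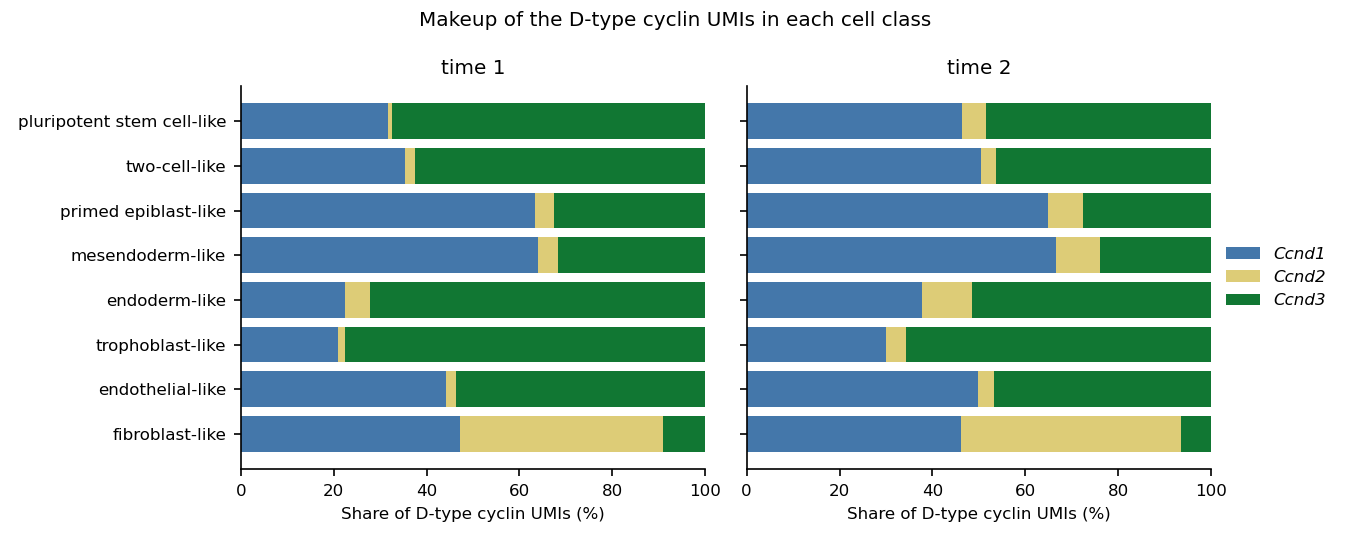
Stacked horizontal bars give the percent of Ccnd1, Ccnd2 and Ccnd3 UMIs contributed by each gene (horizontal axis, percent) in each named class at time 1 and time 2. The Ccnd2 part is 43.7% and 47.4% in fibroblast-like cells and 0.802% and 5.11% in pluripotent cells.

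The E-type cyclins showed the reverse of Ccnd1 and Ccnd2 in the feeders. Ccne1 (chr7:38097984-38107534, minus strand) stood at 174 CPM (173 to 175) in pluripotent cells of time 1 and 228 CPM (228 to 229) at time 2, the highest of the 8 named classes both times. Fibroblast-like cells had 25.9 CPM (23.1 to 28.8) and 30.1 CPM (27.6 to 32.8), the lowest. Among the differentiated classes, mesendoderm-like cells were lowest at time 1 with 89.5 CPM, within counting error of the 95.9 CPM of endoderm-like cells. At time 2 endothelial-like cells were lowest with 122 CPM, within counting error of the 125 CPM of mesendoderm-like cells. Ccne1 thus differed more between the fibroblast-like cells and every other named class than among those others.

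Ccne2 (chr4:11191351-11204779, plus strand), the second E-type cyclin, was lower in fibroblast-like cells as well, at 3.8 CPM (2.79 to 5.05) and 8.09 CPM (6.83 to 9.52). Pluripotent cells had 11.4 CPM (11.1 to 11.7) and 16.3 CPM (16.1 to 16.5). At time 2 the highest value was in mesendoderm-like cells, at 38.4 CPM (34.6 to 42.4), where time 1 had 15.1 CPM (12.7 to 17.7). Ccne1 supplied 93.9% of the E-type UMIs of pluripotent cells at time 1 and 93.3% at time 2, and 87.2% and 78.8% in fibroblast-like cells.

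Of the inhibitors, Cdkn1b (chr6:134920401-134925513, plus strand) encodes p27, which binds cyclin E complexes. It was lowest in fibroblast-like, pluripotent and two-cell-like cells and higher in the other named classes. Pluripotent cells had 7.96 CPM (7.72 to 8.21) and then 9.26 CPM (9.08 to 9.43), and fibroblast-like cells 7.76 and 10.4 CPM. Two-cell-like cells had 10.8 CPM at time 1, near the 12.1 CPM of endothelial-like cells, and 9.53 CPM at time 2. Mesendoderm-like cells had 29.8 CPM (26.5 to 33.4) and 27.2 CPM (24.0 to 30.7), and primed epiblast-like cells 18.1 and 22.6 CPM. Trophoblast-like cells (15.1 and 18.3 CPM), endoderm-like cells (16.3 and 15.0 CPM) and endothelial-like cells (12.1 and 18.3 CPM) lay above pluripotent cells as well. The low RNA level in feeders says nothing of the protein, which is known to be set largely by its degradation.

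Cdkn2a and Cdkn2b lie side by side on chromosome 4. Cdkn2a (chr4:89274471-89294653) encodes the INK4 inhibitor p16 and, from an earlier first exon, the protein ARF that protects p53, and Cdkn2b (chr4:89306299-89311039) encodes the INK4 inhibitor p15. Both are on the minus strand, and the gene counts do not separate the p16 and ARF transcripts. Their promoters are shown because these genes had the widest spread between feeders and stem cells among the inhibitors. RefSeq sequence of GRCm38.p6 was taken upstream of each start, in windows of 200 bases without an annotated exon. The 50 bases next to each start were left out and were not searched. Capitals mark an E2F-type match.
Cdkn2a, first start (ARF), chr4:89294670-89294869: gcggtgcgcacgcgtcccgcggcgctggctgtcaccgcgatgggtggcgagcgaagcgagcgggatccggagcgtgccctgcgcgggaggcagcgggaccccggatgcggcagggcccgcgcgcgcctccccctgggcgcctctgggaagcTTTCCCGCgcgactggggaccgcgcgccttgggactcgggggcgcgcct
Cdkn2a, second start (p16), chr4:89282243-89282442: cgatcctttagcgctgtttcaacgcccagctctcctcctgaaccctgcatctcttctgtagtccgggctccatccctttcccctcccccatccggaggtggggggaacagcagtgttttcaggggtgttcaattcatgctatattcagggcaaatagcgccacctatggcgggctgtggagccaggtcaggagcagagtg
Cdkn2b, chr4:89311083-89311282: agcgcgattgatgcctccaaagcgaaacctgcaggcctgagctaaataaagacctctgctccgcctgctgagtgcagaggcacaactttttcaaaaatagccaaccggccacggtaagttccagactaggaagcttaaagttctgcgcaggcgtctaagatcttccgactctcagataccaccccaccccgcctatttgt
The second start lies 12427 bases and that of Cdkn2b 16413 bases from the first. The windows differ in base makeup, with 79% G and C before the first Cdkn2a start, 57.5% before the second and 52% before Cdkn2b. The first holds 1 match to the E2F-type motifs searched on both strands (TTTCCCGC, TTTCGCGC, TTTGCCGC and TTTGGCGC), with its first base 99 bases before the start. These letters occur in 1.46% of 32851 such promoter windows and in neither of the other windows. A GC box (GGGCGG), found in 24.6% of windows, is in none of these 3, while the Ccne1 window holds 3. A match describes letters and not a bound site.

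Cdkn2a stood at 783 CPM (768 to 799) in fibroblast-like cells of time 1 and 408 CPM (398 to 417) at time 2. Pluripotent cells had 52.1 CPM (51.5 to 52.8) and 23.3 CPM (23.0 to 23.6), which is 6.66% and 5.71% of the fibroblast-like level and above 11 of 11 fibroblast markers at time 1. At time 2 the highest of those markers reached 7.20%. The trophoblast-like cells had 90.6 CPM (83.5 to 98.3) and 64.6 CPM (58.6 to 71.0), next after the fibroblast-like cells at both times. The part of their fibroblast and pluripotency markers, given above, in the members' values was not tested. Mesendoderm-like cells were lowest, at 12.6 and 13.3 CPM. After thinning, 94.1% and 85.5% of fibroblast-like cells had a Cdkn2a UMI, against 37.9% and 19.8% of pluripotent cells, and with all UMIs 81.2% and 57.5% of the latter.

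Cdkn2b was also highest in fibroblast-like cells. Fibroblast-like cells had 116 CPM (110 to 122) and 106 CPM (101 to 111), and pluripotent cells 4.27 CPM (4.10 to 4.46) and 2.41 CPM (2.32 to 2.50). That is 3.68% and 2.28% of the fibroblast-like level, above the highest fibroblast marker at time 1 and within the range of the markers at time 2. Trophoblast-like cells had 10.8 and 8.62 CPM, and the remaining embryonic classes between 1.92 and 9.72 CPM.

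Rb1 (chr14:73183673-73325822, minus strand), whose protein the cyclin-dependent kinases phosphorylate, was low in every class. It ran from 5.99 CPM (2.99 to 10.7) in endoderm-like to 14.7 CPM in trophoblast-like and two-cell-like cells at time 1, and from 2.88 CPM (1.85 to 4.29) to 12.7 CPM (11.1 to 14.4) at time 2. Ordered by level, every one of the 7 pairs of neighbouring classes had overlapping intervals at both times. Classes further apart could still differ by more than counting error. Primed epiblast-like cells of time 1 stood at 7.08 CPM (6.79 to 7.39), below the 11.5 CPM of pluripotent cells. Fibroblast-like cells were at 13.3 and 12.7 CPM, and pluripotent cells at 11.5 CPM (11.2 to 11.8) and 6.08 CPM (5.94 to 6.23).

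Each class was then compared with the pluripotent cells of the same library by the log2 ratio of CPM plus 1, over genes with at least 5 CPM in either class. A gene past 2-fold is called here, with no test behind it. In fibroblast-like cells 6 of 9 genes were called at time 1. Ccnd2 was higher by a log2 ratio of 7.20, Cdkn2b by 4.47, Cdkn2a by 3.88 and Ccnd1 by 2.46, and Ccne1 (-2.70) and Ccne2 (-1.37) were lower. The Ccnd2 ratio is over the same low pluripotent level, so its size is uncertain too. At that time 51% of all genes tested were called, so a call alone does not set the members apart. At time 2, 5 of 9 were called against 55.4% of all genes, with ratios of 5.49 for Ccnd2, 4.97 for Cdkn2b, 4.07 for Cdkn2a, 2.34 for Ccnd1 and -2.88 for Ccne1. The cell cycle as a whole differed too. Summed markers of S phase stood at 563 and 704 CPM in fibroblast-like cells against 3886 and 4959 CPM in pluripotent cells, and Mki67, a proliferation marker, at 19.7 and 24.3 against 102 and 114 CPM. The part of this in the members' differences was not tested.

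The other genes of the pathway were given by a list of 31. In fibroblast-like cells 6 were higher and 14 lower of 30 tested, at both times. The higher genes included the p53 target and inhibitor Cdkn1a (log2 ratio 3.23 and 3.71), the polycomb gene Bmi1, a known repressor of Cdkn2a (2.48 and 3.25), and Mdm2, which degrades p53 (1.81 and 2.37). The lower genes included Mycn (-3.78 and -3.75) and the S phase cyclin Ccna2 (-2.89 and -3.38). Cdkn1a is the clearest case by level, with 745 and 818 CPM in fibroblast-like against 78.4 and 61.4 CPM in pluripotent cells. The median log2 ratio was -0.77 and -0.74 over the list and -0.09 and -0.01 over all genes.

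In primed epiblast-like cells, 4 of 8 genes tested were called at time 1, where 11.1% of all genes were. Ccnd2 (1.67) and Cdkn1b (1.09) were higher and Ccnd3 (-1.41) and Cdkn2a (-1.27) lower. Cdkn1b fell short of 2-fold with a pseudocount of 5 CPM (0.84), and Cdkn2a when the members took part in the clustering (-0.94). At time 2 only Cdkn1b (1.2) and Ccnd3 (-1.44) passed 2-fold among the 8 tested, with 12.3% of all genes. Cdkn2a had no stable direction there, as it passed 2-fold at 1.08 when the members took part in the clustering (with Cdkn2b at 2.26) and at -1.04 with predicted doublets kept. Of the list, Cdk6 and Cdkn1c, which encodes the inhibitor p57, were higher at time 1 and Cdkn1c at time 2, and none was lower, among 27 tested, with a median ratio of 0.10 over the list and 0.04 over all genes at time 1. Both times Ccnd3 was lower and Cdkn1b higher.

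Mesendoderm-like cells showed the same directions for Ccnd3 and Cdkn1b. At time 1, 4 of 8 were called against 19% of all genes, with Cdkn1b at 1.78, Ccnd2 at 1.60, Ccnd3 at -1.52 and Cdkn2a at -1.97. At time 2, 3 of 8 were called against 21.4%, with Cdkn1b at 1.46, Ccne2 at 1.19 and Ccnd3 at -1.34. Of the list, 4 were higher and 3 lower at time 1 and 4 higher and 1 lower at time 2, Myc (2.44) and Cdkn1c (2.19) being the largest at time 1, when the median was 0.08 over the list and 0.07 over all genes.

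In trophoblast-like cells Cdkn2b passed 2-fold at both times and Cdkn2a at time 2, after 0.79 at time 1. Cdkn2b was called at time 1 (1.16), as 1 of 8 tested against 12.2% of all genes. At time 2 Cdkn2b (1.49) and Cdkn2a (1.43) were higher and Ccnd1 (-1.03) lower, 3 of 9 against 17.3%. Of the 27 list genes tested, 2 were higher and 1 lower at time 1 and 4 higher and 2 lower at time 2, and the list median at time 1 was -0.02 beside 0.08 over all genes. Cdkn1c, known for its role in trophoblast giant cells and placenta, stood at 212 CPM against 16.6 CPM at time 1 (3.59) and reached a ratio of 4.60 at time 2.

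Endoderm-like cells had 1 of 8 at time 1, Ccnd2 (1.93), against 14.3% of all genes, and 0 of 8 at time 2 against 18.1%. The count of time 1 depended on the processing, with 5 calls after free RNA subtraction and 4 at a minimum of 30000 UMIs per cell. Endothelial-like cells had 0 of 9 against 14.9% and then 1 of 9, Cdkn2b (1.65), against 19.6%. In endothelial-like cells of time 2 with under 2000 CPM of pluripotency markers, Ccne1, Cdkn1b and Cdkn2a passed 2-fold as well, at -1.49, 1.03 and 1.38. Two-cell-like cells had 0 of 8 against 6.96% and then 1 of 9, Cdkn2b (1.05), against 6.68%. These classes held 51 to 191 cells per library, so a single call rests on few UMIs.

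With passage, Ccnd2 and Cdkn2a moved past 2-fold in pluripotent cells, in opposite directions. Ccnd2 was 5.88-fold higher at time 2 on the CPM plus 1 scale, with a log2 ratio of 2.56 (2.50 to 2.61), and Cdkn2a 2.19-fold lower, with -1.13 (-1.15 to -1.11). The Ccnd2 fold rests on a low time 1 level. As a share of the fibroblast-like level, Ccnd2 in these cells lay within the range of the fibroblast markers at both times. At time 2 only the marker Fn1 stood above it. The size of its fold is thus uncertain. The Cdkn2a levels were above 11 of 11 and 10 of 11 markers as shares of the fibroblast-like level. Ccnd1 was 0.83 higher and Rb1 lower by a ratio of -0.82, short of 2-fold. The ratios were 0.48 for Ccne2, 0.39 for Ccne1, 0.19 for Cdkn1b and -0.18 for Ccnd3. Over the alternatives that of Cdkn1b ran from -0.30 to 0.50 and that of Ccnd3 from -0.19 to 0.20, so neither kept its direction. Cdkn2b, at -0.63, was under 5 CPM at both times and was not counted. Thus 2 of 8 were called, where 4.33% of the 9230 genes tested were, and the median over all genes was -0.06. Of 27 pathway genes tested, Cdk6, the partner kinase of D-type cyclins, rose past 2-fold from 11.2 to 26.0 CPM (1.15) and none fell past it, with a list median of 0.02. Scaling by TMM factors moved the median of all genes by 0.14 and took Cdkn2a to -0.99, just short of 2-fold. Taking off a free RNA profile left Ccnd2 at 2.41. With the Spry2-led cluster added to the class, Ccnd2 was at 2.01 and Cdkn2a at -1.06. With primed epiblast-like clusters added they were at 1.69 and -0.77. In cells chosen by Pou5f1 without clusters they were at 1.71 and -0.80. Over all alternatives the Ccnd2 ratio ran from 0.65 to 2.91.

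The pluripotent class was not the same mixture of clusters at the 2 times. A cluster led by Rhox9 held 84.1% of its cells at time 1 (7700), while at time 2 a cluster led by Gm46332 held 42.4% (8305) and one led by Nanos3 42.3% (8290). Ccnd2 stood at 2.32 CPM in Rhox9-led cells of time 1 and at 4.19 CPM in those of time 2, and at 30.1 CPM in the Gm46332-led cells. Cdkn2a ran the other way, at 54.3 and 41.9 CPM in Rhox9-led cells and 15.1 CPM in Gm46332-led cells. Rb1 was at 12.1 and 12.7 CPM in Rhox9-led cells and at 4.66 CPM in Gm46332-led cells. The highest Ccnd2 and the lowest Cdkn2a and Rb1 values of time 2 thus sat together in a cluster that held few cells at time 1.

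Within Rhox9-led cells alone the passage ratio was 0.65 for Ccnd2, -0.37 for Cdkn2a and 0.06 for Rb1, and no member passed 2-fold. Within Jam2-led cells, which made up 1281 and 2129 cells, the ratios were 1.62 for Ccnd2, -0.46 for Cdkn2a and -0.32 for Rb1. Cells without a called gain gave 1.91 for Ccnd2 and -0.75 for Cdkn2a, and X-low cells without a Y UMI 2.78 and -0.87. The direction of Ccnd2 and Cdkn2a was kept in both clusters, with sizes below those of the whole class. For Ccnd2 in Rhox9-led cells it rests on 2.32 CPM at time 1 and 4.19 CPM in 852 cells of time 2. Free RNA held 7.63 and 120 CPM of Ccnd2, and its part in that rise was not tested. The within-cluster comparisons were added after the data were seen.

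**Figure D3:**
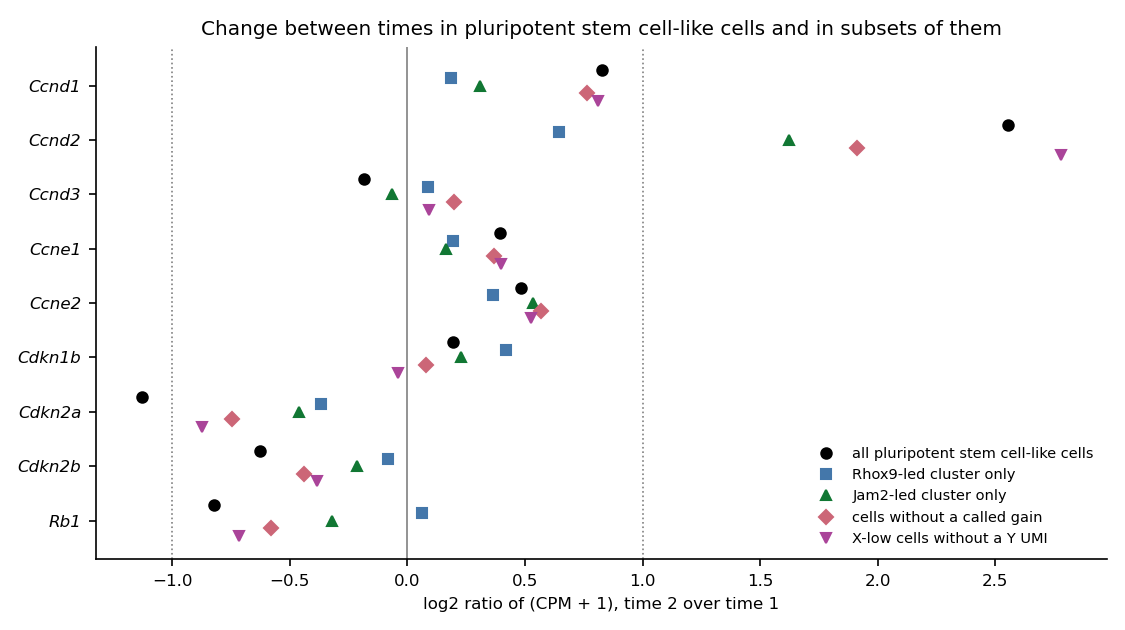
Log2 ratio of time 2 over time 1 (CPM plus 1, horizontal axis) for each gene in all pluripotent cells, in Rhox9-led and Jam2-led cells alone, in cells without a called gain and in X-low cells without a Y UMI, with dotted lines at 2-fold. Ccnd2 falls from 2.56 in all pluripotent cells to 0.65 in Rhox9-led cells, and Cdkn2a goes from -1.13 to -0.37.

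Passage was also compared in every class. In 11 of 11 classes with at least 50 cells at both times, the pluripotent class among them, Ccnd1, Ccnd2 and Ccne2 were higher at time 2, and Ccne1 was in 10. The 11 took in the T-led and Krt8-led clusters and the cells with both fibroblast and stem cell markers. All classes shared the same libraries, so they are not separate observations. The ratios by class were taken without subtracting free RNA, in which Ccnd2 stood at 7.63 CPM at time 1 and 120 CPM at time 2. The part of free RNA in the Ccnd2 rise was not tested in the classes other than pluripotent cells. Rb1 was lower in 10 of the 11, in 5 with an interval below 0. Cdkn2a was lower in 7, all with an interval below 0, and higher in 4, of which 1 had an interval above 0. The irradiated feeders took part. In fibroblast-like cells Ccnd2 was higher by 0.85 (0.81 to 0.89), Ccnd1 by 0.70 (0.66 to 0.74) and Cdkn2a lower, at -0.94 (-0.98 to -0.90). Among the 9230 genes tested in the pluripotent class, 11.0% were higher in all 11 classes and 10.4% lower in all 11. Whether both libraries used the same feeder preparation is not given in the sources used here.

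Cells can also be divided by X dosage, their X-linked UMIs over their autosomal UMIs, taken relative to the median of cells with Y-linked UMIs. Among pluripotent cells with no Y UMI, X-high cells were those from 1.2 times that median, 5244 at time 1 and 3029 at time 2, and X-low cells numbered 2615 and 14048. No member passed 2-fold at either time, while 2.34% of all genes did at time 1 and 3.58% at time 2. The ratio of Ccnd3 was 0.62 (248 against 161 CPM) at time 1 and 0.69 (276 against 172 CPM) at time 2. That of Cdkn2a was 0.56 (60.0 against 40.3 CPM) and 0.64 (34.2 against 21.6 CPM). At time 2 the ratio of Ccnd3 was 0.54 within Rhox9-led and 0.45 within Jam2-led cells, whereas that of Cdkn2a dropped to 0.12 and 0.15, and to 0.31 in cells without a called gain. Cdkn1b stood at -0.43 and -0.15, and Ccnd2 at 0.17 and -0.82. At time 2, X-high cells made up 1.25% of the Y-negative cells of the Gm46332-led cluster and 95.5% of those of the Jam2-led cluster. The Ccnd2 ratio of time 2 turned to 0.88 within Jam2-led cells, stood at -0.13 within Rhox9-led cells and at 0.01 in cells without a called gain, so it had no single direction. Of the pathway list, 2 genes were past 2-fold at time 1, Cdk6 (-1.65) and Cdkn1c (-1.12), and 1 at time 2, Cdk6 (-1.24), all lower with high X dosage.

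Gains of whole chromosomes were called per cell from the part of a cell's autosomal UMIs that a chromosome holds, the members left out, at 1.3 times the median of time 1 cells or more. Cells with at least 1 called gain made up 13.6% of pluripotent cells at time 1 and 81.5% at time 2. Rb1 lies on chromosome 14, which was called gained in 4199 pluripotent cells of time 2 (21.4%). Those cells had 6.23 CPM of Rb1 against 7.53 CPM in the 3628 cells without any called gain, a log2 ratio of -0.24 (-0.33 to -0.15). The 338 genes of chromosome 14 tested had a median of 0.46 in that comparison, which the rule itself sets, and 15 of them were at or below Rb1. The gained cells thus had less Rb1 RNA than cells without any called gain.

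The comparison depended on the clusters. Chromosome 14 was gained in 37.7% of Gm46332-led cells, 12.6% of Nanos3-led, 1.76% of Rhox9-led and 0.28% of Jam2-led cells of time 2. Within Gm46332-led cells, 3135 with the gain and 441 without any, Rb1 was at 5.79 and 4.11 CPM, a ratio of 0.41 beside a chromosome median of 0.48. There, 131 of 335 genes were at or below Rb1. Against all 15377 cells without a gain of chromosome 14, the ratio was 0.04 beside a median of 0.48, and 12 of 335 genes were at or below Rb1. Rb1 was thus below most genes of its chromosome with both references drawn from all pluripotent cells, and close to their median within Gm46332-led cells.

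**Figure D4:**
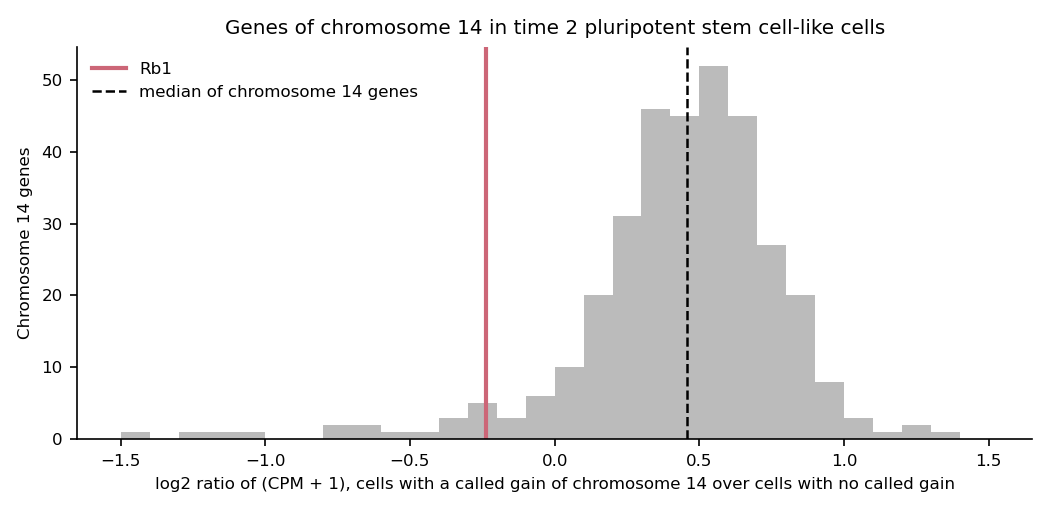
Histogram of the log2 ratio (CPM plus 1, horizontal axis) of chromosome 14 genes in cells with the gain over cells with no called gain, with the number of genes on the vertical axis. The solid line is Rb1, at -0.24, and the dashed line the median, at 0.46.

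Ccnd2 and Cdkn1b share chromosome 6, which was gained in 140 pluripotent cells of time 2. Ccnd2 stood at 21.0 CPM in them and 12.1 CPM in cells without any gain, a ratio of 0.75 (0.52 to 0.98). Cdkn1b stood at 12.7 against 8.32 CPM, a ratio of 0.55 (0.27 to 0.84). The median over 409 genes of chromosome 6 was 0.54, with quartiles at 0.37 and 0.69. These cells were not compared within clusters, although Ccnd2 differed between clusters and a called gain of any autosome was found in 94.7% of Gm46332-led but 6.62% of Jam2-led cells. The chromosomes of the other members were gained in under 50 cells and were not compared.

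Cells with the chromosome 14 gain also differed in members on other chromosomes. Ccnd2 was at 35.6 CPM against 12.1 CPM (1.49) and Cdkn2a at 13 against 31.5 CPM (-1.22), so 2 of 8 were called, where 3.25% of all genes were. Within Gm46332-led cells these ratios were 0.94 and -0.84 and no member passed 2-fold.

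Finally, pluripotent cells were ranked within each library by the summed UMIs of a list of S phase genes and of a list of G2 and M phase genes, neither of which holds a member, and cut into 3 ranges of near-equal size. These are ranges of a score and not phases, and 1770 cells at time 1 and 3389 at time 2 lay near the cuts of the S list. Both E-type cyclins were higher along the S list. Ccne1, which is known to peak at the passage from G1 to S, went from 125 to 169 to 218 CPM at time 1 and from 170 to 225 to 292 CPM at time 2. Ccne2 went from 7.43 to 10.2 to 15.8 CPM and from 9.68 to 13.9 to 25.7 CPM. Both were higher in every next range in both libraries. From the lowest to the highest range their log2 ratios were 0.80 and 0.78 for Ccne1 and 0.99 and 1.32 for Ccne2.

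Along the same list the ratios of Ccnd1 were 0.68 and 0.39, those of Ccnd2 0.34 and 0.79, and those of Ccnd3 0.22 and 0.11. The inhibitors and Rb1 went the other way, with Cdkn2b at -0.56 and -0.52, Cdkn2a at -0.24 and -0.29, Cdkn1b at -0.31 and -0.11 and Rb1 at -0.51 and -0.11. With the list of G2 and M genes the E-type cyclins were lower in the highest range, Ccne2 by ratios of -0.59 and -0.68 and Ccne1 by -0.40 and -0.41, and Cdkn1b was higher, by 0.29 and 0.33. Cdkn2b stood at 0.61 and 0.13 and Ccnd3 at -0.20 and -0.24. Cdkn2b was under 5 CPM in pluripotent cells at both times. The ranges pooled the clusters of the class and were not compared within clusters, although Ccnd1 and Ccnd2 differed between them.

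**Figure D5:**
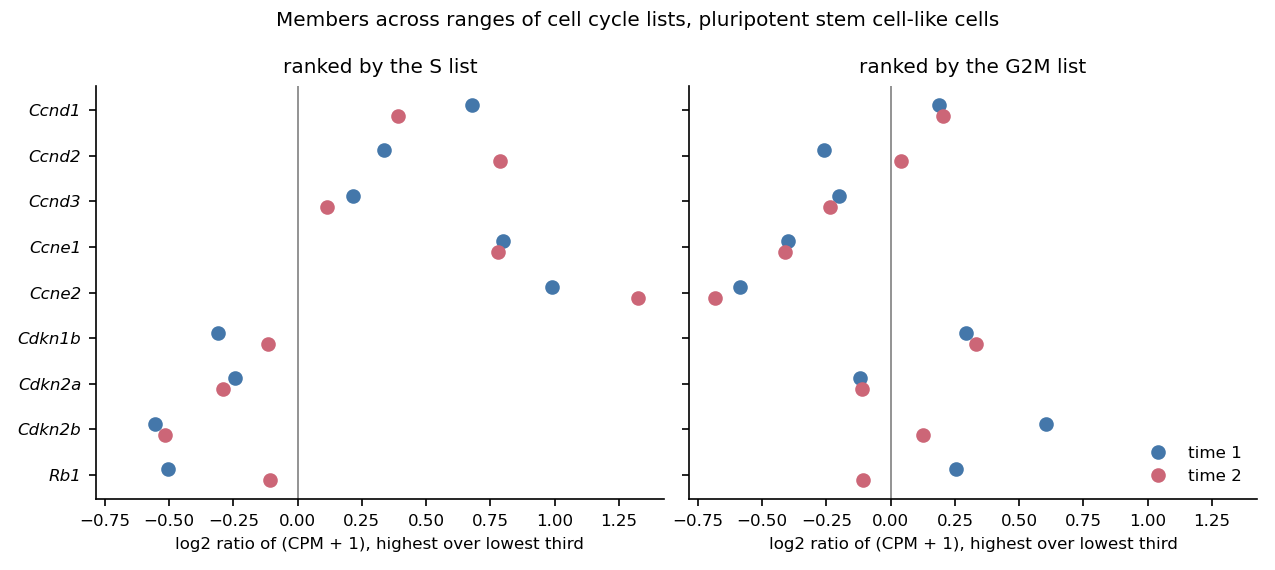
Log2 ratio (CPM plus 1, horizontal axis) of the highest over the lowest range of pluripotent cells for each gene, ranked by the S list (left) and by the list of G2 and M genes (right), with 1 point per library. Over the S list Ccne2 lies at 0.99 and 1.32 and Cdkn2a at -0.24 and -0.29.

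Across 24 points, each a class at 1 time that shares its library with the others, the genes whose log2 levels correlated best with each member were found among 4683 candidates. They are a description with no test. The points took in fibroblast-like cells and cells with both fibroblast and stem cell markers. Ccnd2 stood at 247 CPM or more in those, and at 28.8 CPM or less in the other named classes. The part of this split in the correlations was not tested. For Ccnd2 the closest was the matrix-associated gene Aebp1 (Pearson's r 0.94), and for Cdkn2b Anxa6 (0.96). Ccnd1 was closest to the proteoglycan gene Vcan (0.91), and Cdkn2a to Arl8a (0.94). Ccne1 was closest to the replication factor gene Rfc5 (0.96), followed by Anapc15 and Gart. Ccne2 was closest to Hnrnpm (0.95), Cdkn1b to Tma7 (0.87), Ccnd3 to Cox4i1 (0.84) and Rb1 to Cox6b2 (0.77), the weakest of these.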

How the data were processed

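The study deposited droplet single-cell data (10x Chromium, version 3.1) as 1 library per time point. The deposited values are UMI counts, whole numbers for each barcode and gene, and Cell Ranger 6.1.2 and bcl2fastq 2.20.0.422 are named with mm10 and GRCm38 in the submitters' processing notes. Coordinates are those of GENCODE M21, which matched 32235 of the 32285 genes by identifier. Tags that link cells to lines were not used, so a library is 1 sample and p-values were not computed.

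Cells had at least 18315 (time 1) or 18646 UMIs (time 2), no fewer than 1000 genes and a mitochondrial share up to 10%. Scrublet's automatic threshold marked 0% of cells at time 1 and 9.04% at time 2, so the highest-scoring 10% of each library (2526 and 2766) were removed instead, a choice made after seeing this. Clustering used 2000 variable autosomal genes without the members, 30 principal components, 15 neighbours and Leiden resolution 0.5. How markers gave names was decided once the clusters were known. The same rule kept the cluster with Spry2 among its leading genes out of the pluripotent class. Fibroblast cells at or above 1000 CPM of pluripotency markers were set apart as mixed, and 61 cells lay near that limit. A Card19-led cluster of 69 cells with a median of 352626 UMIs was left out.

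CPM are the summed counts of a class per 1000000 UMIs. Log2 ratios used a pseudocount of 1 CPM and genes with at least 5 CPM in either group, and a gene was called at an absolute log2 ratio of 1. Shares used cells thinned to 10000 UMIs. Intervals are exact Poisson or Clopper-Pearson at 95%. All 9 members were described, with pathway genes past 2-fold (up to 10) and the 3 genes closest to each member by Pearson's r among those with at least 50 CPM. The members and lists were chosen with earlier results of these data known. Alternatives changed pseudocount, scaling (TMM factors of edgeR 4.0.16), depth, filter, population and clustering. Tools were Python 3.11.15, scanpy 1.11.5, igraph 0.11.9, numpy 2.4.6, scipy 1.17.1, pandas 2.3.3 and R 4.3.3.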

Additional observations from a re-analysis of the deposited data

Results flagged for a closer look

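Several ratios against pluripotent cells changed sign between the libraries, and no change of sign was tested. The 3 given here had intervals on opposite sides of 0, at least 5 CPM in either class at both times and a ratio past 1.5-fold at 1 time or both. Ccnd1 in primed epiblast-like cells was above the pluripotent level at time 1 (log2 ratio 0.62) and below it at time 2 (-0.15). In that class its level was 156 CPM and then 163 CPM, while that of pluripotent cells went from 101 to 181 CPM. The class held 314 cells at time 2. The unnamed T-led cluster held 4041 cells then, with 869 CPM of summed primed epiblast markers against 967 CPM in the class. Its Ccnd1 level was 206 CPM at time 2, above that of pluripotent cells. Ccnd2 in endothelial-like cells was above at time 1 (0.96) and below at time 2 (-0.61), with 5.93 and 12.7 CPM in that class against 2.56 and 19.9 CPM. Over the alternatives, this ratio ran from 0.53 to 1.35 at time 1 and from -3.04 to -0.09 at time 2. The lowest value came from subtraction of free RNA, which held 120 CPM of Ccnd2 at time 2. Cdkn2a in endothelial-like cells was below at time 1 (-0.34) and above at time 2 (0.91), with 40.9 and 44.6 CPM against 52.1 and 23.3 CPM. In all 3 cases the pluripotent level changed more between the libraries, in log2 terms, than the level of the other class.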

How the results depend on the processing

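No paired analysis was possible because each time point had 1 library. Of 1647 recomputed log2 ratios, 63 changed sign. Of 387 ratios recomputed for called members, 347 kept their call and 0 changed sign. The counts of members past 2-fold in fibroblast-like cells and by X dosage stayed within 1.5 times under every alternative run. For passage, the count of 2 fell to 1 with TMM factors, a minimum of 50 CPM, cells chosen by Pou5f1 without clusters, primed epiblast-like clusters added, X-low cells only, cells without a called gain, or Jam2-led cells only, and to 0 in Rhox9-led cells only. With a minimum of 50 CPM, the counts at time 1 went from 4 to 2 for primed epiblast-like, 4 to 2 for mesendoderm-like, 1 to 0 for trophoblast-like and 1 to 0 for endoderm-like cells, and at time 2 from 2 to 1 for primed epiblast-like, 3 to 1 for mesendoderm-like, 1 to 0 for endothelial-like and 1 to 0 for two-cell-like cells. A pseudocount of 5 CPM gave 0 for trophoblast-like cells at time 1, and at time 2 it gave 1 for primed epiblast-like, 1 for trophoblast-like, 0 for endothelial-like and 0 for two-cell-like cells. A pseudocount of 0.1 CPM gave 2 for endoderm-like and 1 for endothelial-like cells at time 1, and 1 for endoderm-like and 2 for two-cell-like cells at time 2. Free RNA subtraction gave 3 for trophoblast-like, 5 for endoderm-like, 1 for endothelial-like and 2 for two-cell-like cells at time 1, and 1 for endoderm-like, 2 for endothelial-like and 2 for two-cell-like cells at time 2. Thinning to 10000 UMIs gave 2 for trophoblast-like and 1 for two-cell-like cells at time 1, and 1 for primed epiblast-like and 3 for two-cell-like cells at time 2. A minimum of 30000 UMIs per cell gave 4 for endoderm-like cells at time 1 and 0 for two-cell-like cells at time 2. TMM factors gave 1 for endoderm-like and 2 for endothelial-like cells at time 2. Clustering with the members gave 1 for endothelial-like cells at time 1 and 4 for primed epiblast-like cells at time 2. Endothelial-like cells under 2000 CPM of pluripotency markers gave 4 at time 2. For the chromosome 14 gain, the count of 2 became 1 against cells without a gain of chromosome 14 and 0 in Gm46332-led cells only. The cause of these moves was not tested, except that a higher minimum tests fewer genes. Shares of cells with a UMI moved with depth in 215 of 216 cases with all UMIs. Subsets by leading gene and by pluripotency markers were chosen after seeing the data. TMM factors moved the median log2 ratio of all genes by 0.14 for passage, and at time 1 and time 2 by -0.23 and -0.31 for fibroblast-like, -0.15 and -0.16 for mesendoderm-like, -0.14 and -0.20 for trophoblast-like and -0.12 and -0.15 for endothelial-like cells, and by -0.16 for primed epiblast-like cells at time 2.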
